A study of Mus musculus with 4 samples.

Results

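The replication-dependent histone genes of the mouse were followed in bulk RNA-seq of WT and Yap KO cells, unstimulated or stimulated. Members were all genes whose GENCODE M21 symbol begins with Hist1h, Hist2h, Hist3h or Hist4h, matched to the count tables by Ensembl identifier. The rule found 70 genes, 67 of them annotated as protein-coding and 3 as pseudogenes, and 68 of these had an entry among the 50686 identifiers of the tables. Hist1h2bm and Hist1h2bh had none and were not analysed here. The 68 genes comprised 6 of the H1 class, 20 of H2A, 17 of H2B, 12 of H3 and 13 of H4. Hist1h2aa, Hist1h2ba, Hist1h2al and Hist2h3c1 had 0 reads in all 4 libraries. After the filter on low counts 50 members were tested, and 18 with an entry were not. A member at almost no reads in one state could pass that filter through the other state alone.

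The cells came from spleen and lymph node, RNA was taken from cell culture, and the genotype label is either WT or Yap KO. Each genotype gave 1 unstimulated and 1 stimulated library, 4 in all, with 19935523 to 25419974 reads in genes. The titles of the stimulated libraries carry the number 24 without a unit, and those of the unstimulated libraries carry none, so state and time in culture cannot be told apart. What the stimulus was, which cells were cultured, which exons were deleted, how many animals gave cells and how RNA was selected is not given in the sources used here. Yap1, the gene that encodes YAP, had 1 (WT) and 0 (Yap KO) reads in unstimulated and 3 and 2 in stimulated cells. All 4 counts are at or below a floor of 3 reads, so its level does not check the genotype label at this depth. Both libraries of a genotype carry the number 1 and may share an animal. No group had a replicate, and each value below comes from 1 library.

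Replication-dependent histone genes encode the bulk of the core histones H2A, H2B, H3 and H4 and of the linker histones of the H1 class, and they are known for expression that is tied to DNA synthesis in S phase. Nearly all lack introns, and their canonical mRNAs end shortly after a conserved stem-loop in place of a poly(A) tail. The stem-loop-binding protein SLBP holds this hairpin during 3′ end cleavage, export and translation. Some of these genes can also give longer transcripts that run past the stem-loop and are polyadenylated, and a library made from polyadenylated RNA measures the canonical transcripts only in part.

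The stem-loop is shown first because the annotated transcript ends are used to group the genes in what follows. In the GENCODE M21 transcripts (GRCm38), 46 of the 70 genes had a model holding the 16-base stem-loop, and 24 genes had no such model. The stem-loop started 24 to 61 bases after the last amino acid codon, with the stop codon counted. Many models of the 24 genes, such as those of Hist1h1b and Hist1h3i, end at the stop codon, so no hairpin could be found in them. The search accepted up to 2 mismatches to the consensus, and all hairpins found had 0. There were 8 distinct hairpin sequences, and the most frequent was found in 26 genes. Each is given below with 1 gene that holds it, 5′ to 3′ on the strand of the gene, with the stem-loop in capitals and flanking transcript bases in lower case.
Hist1h2ae (chr13:23570668-23570683, minus strand, 26 genes): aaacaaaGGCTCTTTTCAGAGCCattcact
Hist1h4d (chr13:23581950-23581965, plus strand, 7 genes): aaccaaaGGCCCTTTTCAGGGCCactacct
Hist1h3c (chr13:23745047-23745062, minus strand, 6 genes): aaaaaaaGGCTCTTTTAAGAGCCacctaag
Hist1h4i (chr13:22040966-22040981, minus strand, 2 genes): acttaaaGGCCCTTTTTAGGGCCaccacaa
Hist1h4b (chr13:23757366-23757381, plus strand, 2 genes): tacaaaaGGTCCTTTTCAGGACCactcact
Hist1h4a (chr13:23760800-23760815, minus strand, 1 gene): aaccaaaGGCCCTTCTCAGGGCCgcccaca
Hist2h2ac (chr3:96220418-96220433, minus strand, 1 gene): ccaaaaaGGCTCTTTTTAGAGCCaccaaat
Hist1h3g (chr13:23535889-23535904, plus strand, 1 gene): ctttaaaGGCTCTTCTTAGAGCCacccatc

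More reads lay in histone genes in the stimulated than in the unstimulated libraries. Summed over all members unstimulated WT and Yap KO libraries held 2873 and 3036 reads, and their stimulated counterparts 6657 and 5721. As counts per 1e6 reads in genes (CPM) the sums were 130.1, 119, 317 and 287 in that order. Both stimulated sums lay above both unstimulated sums. The ratio of stimulated to unstimulated was 2.44 in WT (exact 95% interval 2.34 to 2.55) and 2.40 in Yap KO (2.30 to 2.51), where the intervals, here and throughout, cover counting error only. The sums rest in part on 2 genes that went the other way, Hist1h1c and Hist3h2a: without them the ratios were 4.24 (4.01 to 4.48) in WT and 3.80 (3.60 to 4.00) in Yap KO. In bulk RNA a different number of cells that express a gene and a different amount of its RNA per cell cannot be told apart. The sums count only reads with 1 place in the genome, and a median of 61.0% of a member's 31-base stretches also occur in transcripts of another gene.

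The additive fit of state and genotype over the 4 libraries called 35 members higher and 6 lower when stimulated, and 9 tested members were not called (edgeR quasi-likelihood F test, Benjamini-Hochberg adjusted p under 0.05). Over all 15394 genes tested, 33.3% were called higher and 34.1% lower. The median log2 ratio of stimulated over unstimulated was 2.71 in WT and 2.20 in Yap KO over the 50 tested members, against -0.02 and -0.05 over all genes tested. At least 2-fold higher were 33 members in WT and 36 in Yap KO, where 23.8% and 22.7% of all genes tested were. At least 2-fold lower were 5 members in WT and 7 in Yap KO, against 24.5% and 25.9% of all genes. The log2 ratio had the same sign in both genotypes in 46 of the 50. Both stimulated libraries lay above both unstimulated libraries in 37 members (40.4% of all genes tested), and both lay below in 8 (41.8%). At least 16-fold higher in the additive fit were 19 members, against 3.44% of all genes. Members that passed the filter through the stimulated libraries alone could hardly show anything but a rise, so these counts rest in part on the filter. Of the members with an entry, 28 had at least 10 reads in both unstimulated libraries and 48 in both stimulated ones. The members were not alike: 7 had 0 or 1 read in both unstimulated libraries and at least 10 in both stimulated ones, while a few with the most reads in unstimulated cells were lower.

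**Figure D1:**
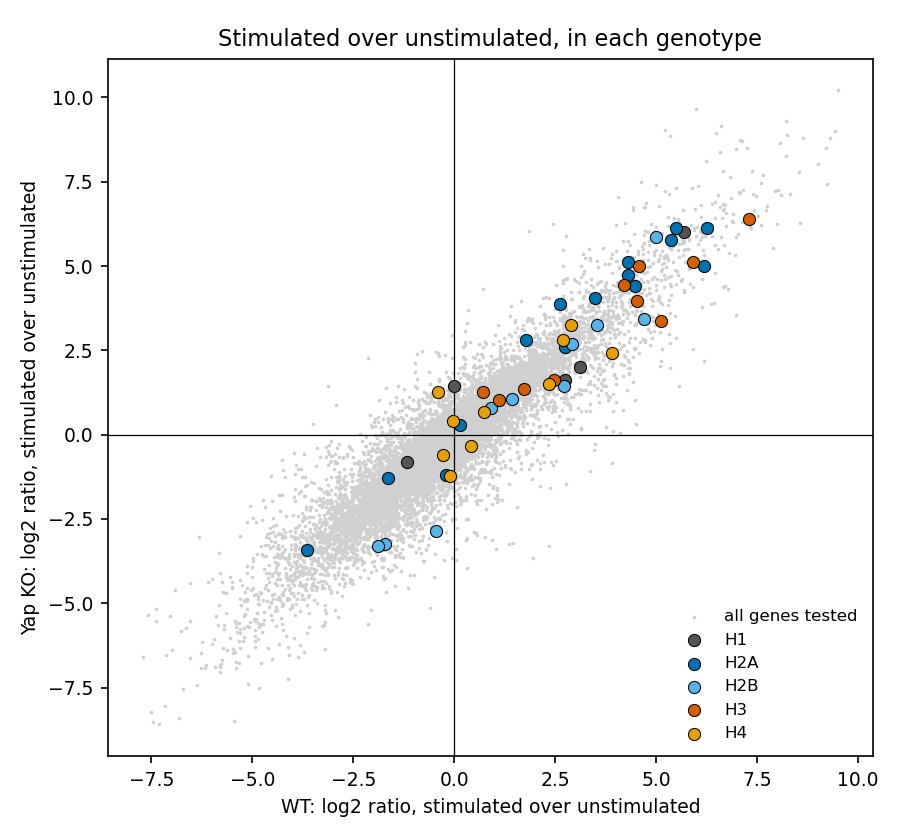
Each point is 1 gene, placed by its log2 ratio of stimulated over unstimulated in WT (x axis) and in Yap KO (y axis), with a prior count of 2; grey points are all 15394 genes tested and coloured points the 50 tested histone genes by class. Of these, 46 have the same sign in both genotypes, and the 10 H3 genes are all above 0 on both axes.

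The H3 genes, which encode the core histone H3, rose as a class. All 10 tested H3 members were called higher, with state coefficients of 1.00 to 8.88 on the log2 scale and median log2 ratios of 4.36 in WT and 3.67 in Yap KO. The count of 10 rests in part on the filter on low counts. H3 members near 0 reads without stimulation, such as Hist1h3c and Hist1h3b, could hardly show anything but a rise. With genes at a count of 0 set to a floor of 3 counts per library, the WT median was 4.06. Hist1h3c (ENSMUSG00000069310, chr13:23744973-23745602, minus strand, 1 exon) had 0 reads in WT and 1 in Yap KO cells without stimulation, and 289 and 206 with it. It was at least 108-fold higher in stimulated WT cells by that floor, and 277-fold higher in Yap KO with a log2 interval of 5.62 to 13.4. Its fitted coefficient of 8.88 ± 0.57 (SE) had an adjusted p of 3.79e-07 (edgeR), and such a coefficient, with unstimulated counts near 0, depends on the prior count. Hist1h3b had 0, 0, 32 and 36 reads in the same order, a rise of at least 12.0-fold for WT and 16.1-fold for Yap KO by the floor. Hist1h3i rose from 9 and 9 reads to 235 and 271 (5.10 ± 0.37 log2). Hist1h3e differed from these, with 98 and 113 reads already present in unstimulated cells and 189 and 172 in stimulated cells (1.07 ± 0.24, adjusted p = 0.00344). The other 6 called H3 genes had coefficients of 1.00 to 7.54, and 2 H3 members, with at most 5 reads in any library, were not tested.

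Of 15 tested H2A genes, which encode the core histone H2A, 11 rose, 2 fell and 2 were not called. The shares over all genes tested were 33.3% called higher and 34.1% lower. As for H3, members near 0 reads without stimulation could hardly show anything but a rise. Hist1h2ae (ENSMUSG00000069272, chr13:23570517-23571220, minus strand) had 16 reads in WT and 9 in Yap KO cells without stimulation, and 662 and 458 with it. Its coefficient was 5.76 ± 0.29 log2 with an adjusted p of 3.19e-07 (edgeR), and per kilobase of exon it had the highest level of all members in stimulated WT cells (46.0 CPM per kb). Hist1h2ag had 2 reads in each unstimulated library and 277 and 224 when stimulated, a ratio of 155 in WT (log2 interval 5.41 to 10.3) and 151 in Yap KO (5.37 to 10.3). Hist1h2ah was at 0 in both unstimulated libraries and at 39 and 35 reads in the stimulated ones, a rise of at least 14.6-fold for WT and 15.7-fold for Yap KO by the floor. The other 8 H2A genes that rose had coefficients of 2.32 to 6.97, and none of them had more than 21 reads in an unstimulated library.

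Hist3h2a went the other way. This H2A gene on chromosome 11 (ENSMUSG00000078851, chr11:58954685-58956830, plus strand, 1 exon) had 740 reads in WT and 633 in Yap KO cells without stimulation, more than any other member in either library. In stimulated cells it had 51 reads in WT and 42 in Yap KO. Its coefficient of -3.59 ± 0.22 log2 had an adjusted p of 1.16e-06 (edgeR), and it made up 25.8% of all histone reads in WT unstimulated cells and 0.766% in WT stimulated cells (exact binomial 95% intervals 24.2 to 27.4% and 0.571 to 1.01%). Of its exon, 708 bases overlap Trim17 on the same strand, and 138 bases lie opposite another annotated gene. Hist2h2aa2 fell as well, from 43 reads in each unstimulated library to 11 and 12 (-1.60 ± 0.46, adjusted p = 0.0128). All 31-base stretches of Hist2h2aa2 occur in another gene, and DESeq2 gave it an adjusted p of 0.195.

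Of 10 tested H2B genes, 7 rose and 3 fell, where 33.3% of all genes tested were called higher and 34.1% lower. The limit from the filter given for H3 and H2A holds here too. Hist1h2bk, whose gene starts 301 bases from the opposite-strand neighbour Hist1h2ah, had 6 (WT) and 2 (Yap KO) reads without stimulation and 227 and 186 with it (5.93 ± 0.44 log2, adjusted p = 3.42e-06). Hist1h2bj had 11 and 22 reads unstimulated and 300 and 193 stimulated (4.16 ± 0.37). Hist1h2bp, which like 4 other members has a model with more than 1 exon, had 2 reads in each unstimulated library and 40 and 29 in the stimulated libraries. The 4 other H2B genes that rose had coefficients of 0.89 to 3.00. Both H2B genes beside Hist3h2a on chromosome 11 fell: Hist3h2ba from 34 and 45 reads to 8 and 2 (-2.66 ± 0.59, adjusted p = 0.00324), and the pseudogene Hist3h2bb-ps from 14 and 21 to 2 and 0 (adjusted p = 0.00833, and 0.0859 with DESeq2). In Yap KO cells the latter was at least 5.202-fold lower. The third H2B gene that fell, Hist2h2be, was chosen for naming after its values were seen: it had 101 (WT) and 140 (Yap KO) reads without stimulation and 65 and 13 with it (-1.41 log2, adjusted p = 0.0291). Its call was lost with DESeq2 (adjusted p = 0.0555), without the filter on low counts (0.0962) and with state as the only term (0.0778).

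H4 genes had the lowest share of calls of the 5 classes. Of 10 tested, 4 rose, none fell and 6 were not called, where 33.3% of all genes tested were called higher and 34.1% lower. The median log2 ratio was 0.58 in WT and 0.97 in Yap KO. The same 4 of 10 had an unadjusted p under 0.05 in the additive fit, as did 10776 of all 15394 genes tested. Hist1h4d (ENSMUSG00000061482, chr13:23581598-23582735, plus strand, 1 exon) had 89 reads in WT and 147 in Yap KO cells without stimulation, and 524 and 774 with it. Its coefficient was 2.78 ± 0.19 log2 (adjusted p = 2.10e-06, edgeR), and it had the highest level per kilobase of all members in stimulated Yap KO cells (35.2 CPM per kb). Hist1h4i rose from 21 and 20 reads to 151 and 155, and Hist1h4b from 6 and 13 to 106 and 59. By contrast Hist1h4c had 139, 153, 121 and 152 reads in the 4 libraries, and its coefficient was 0.20 ± 0.25 (adjusted p = 0.506). Hist2h4, on chromosome 3, had 123, 81, 90 and 39 reads (-0.42 ± 0.30, adjusted p = 0.23). Hist4h4, on chromosome 6, had 88, 126, 73 and 39 (-0.65 ± 0.35, adjusted p = 0.13). The counts of the 2 states overlapped in Hist1h4c and Hist2h4, and in Hist4h4 both stimulated counts lay below both unstimulated ones.

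Linker histone genes of the H1 class, whose products bind DNA between nucleosomes, moved in both directions. Hist1h1b (ENSMUSG00000058773, chr13:21779883-21780625, minus strand) had 4 (WT) and 3 (Yap KO) reads without stimulation and 277 and 252 with it, 77.7-fold higher in WT and 113-fold in Yap KO. Its coefficient was 6.48 ± 0.41 log2 with an adjusted p of 1.18e-06 (edgeR). Hist1h1e rose from 53 and 113 reads to 327 and 261 (2.16 ± 0.30), and Hist1h1d from 10 and 34 to 91 and 106 (2.52 ± 0.40). Hist1h1c (ENSMUSG00000036181, chr13:23738808-23740367, plus strand) fell, from 544 and 577 reads to 215 and 243. Its coefficient was -0.99 ± 0.19 (adjusted p = 0.00131), and both stimulated counts lay below both unstimulated counts. Near-identical copies touch this class least: a median of 3.82% of the 31-base stretches of an H1 gene occur in another gene, against 80.8% for H2A, 56.3% for H2B, 63.1% for H3 and 47.9% for H4.

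**Figure D2:**
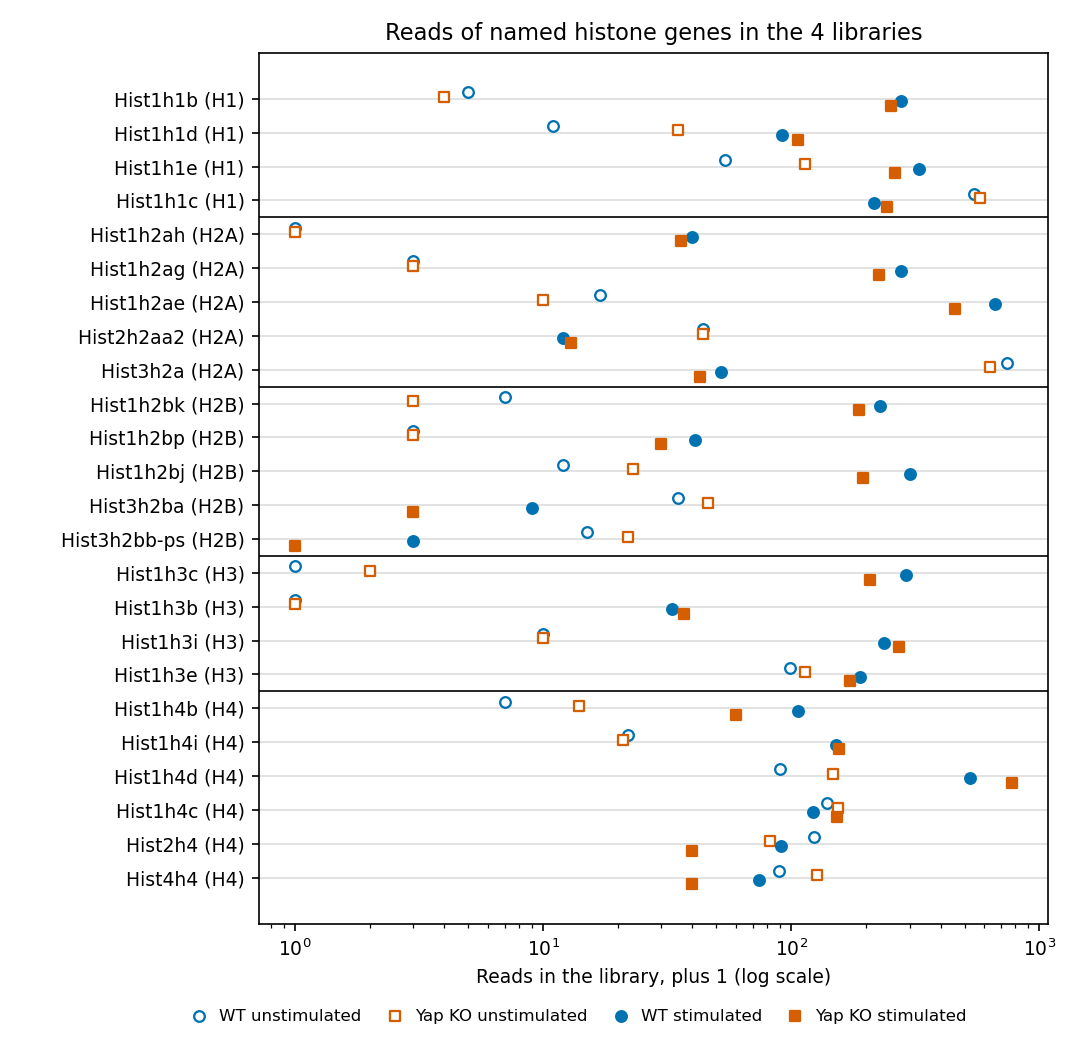
Reads of the 24 named histone genes in each library, plus 1, on a log axis; open symbols are unstimulated and filled symbols stimulated libraries, circles WT and squares Yap KO, and genes are ordered within class by their state coefficient. Filled symbols lie far to the right of open ones for genes such as Hist1h3c (0 and 1 against 289 and 206 reads), and to the left for Hist3h2a (740 and 633 against 51 and 42).

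The make-up of the histone reads differed between the states. H3 genes took 9.01% of histone reads in WT unstimulated and 8.56% in Yap KO unstimulated cells, and 20.1% and 19.3% in the stimulated libraries. H1 genes took 21.9% and 24.4% unstimulated and 13.9% and 15.5% stimulated. That fall came from Hist1h1c, which took 18.9% and 19.0% unstimulated and 3.23% and 4.25% stimulated, while the other H1 genes together went from 2.99% and 5.37% to 10.7% and 11.3%. Summed reads of H3 genes were 5.44-fold higher on the CPM scale in stimulated WT cells and 5.42-fold in Yap KO, those of H1 genes 1.55-fold and 1.53-fold. Without Hist1h1c the H1 sum was 8.69-fold higher in WT (6.94 to 11.005) and 5.05-fold in Yap KO (4.25 to 6.04). For H2A the sums were 2.03-fold and 2.22-fold higher, and 6.72-fold and 6.63-fold without Hist3h2a. For H4 they were 2.25-fold and 2.47-fold. The H2B sum was 3.51-fold higher in WT (3.10 to 4.00) and 2.36-fold in Yap KO (2.08 to 2.68). Counting intervals did not overlap between the genotypes for this class, nor for H1 without Hist1h1c. With 1 library a group, the difference between these ratios has no test.

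**Figure D3:**
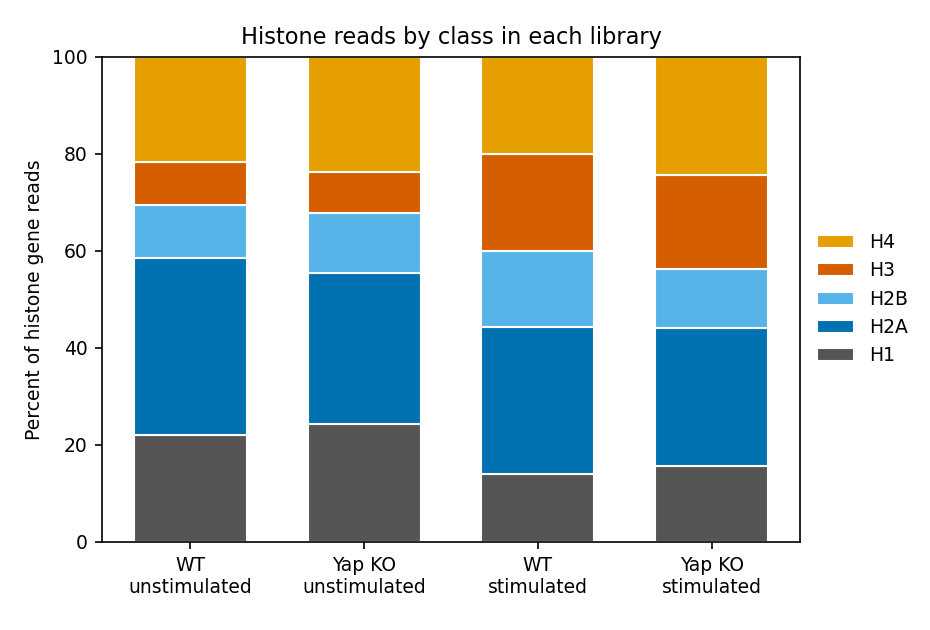
Percent of all histone gene reads that fell in each class, for the 4 libraries (1 library a bar, summing to 100%). The H3 share is 9.01 and 8.56% in the unstimulated and 20.1 and 19.3% in the stimulated libraries.

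Levels per kilobase of exon put different genes first in the 2 states. In unstimulated cells Hist1h1c (15.2 CPM per kb in WT, 14.2 in Yap KO) and Hist3h2a (15.05 and 11.4) had the highest levels of all members. In stimulated WT cells they were at 6.75 and 1.16 CPM per kb, below Hist1h2ae (46.0), Hist1h2bj (31.7), Hist1h3i (28.0) and Hist1h2ag (28.0). In stimulated Yap KO cells Hist1h4d (35.2), Hist1h3i (34.2) and Hist1h2ae (33.7) were highest. Reads from near-identical copies were not counted, so these levels and their order are of uniquely placed reads only.

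Genes were next grouped by the annotated end of their longest-running model, a grouping that was made with the values already known. In 23 genes the model ended within 100 bases after the stem-loop, in 23 it continued further, and in 24 no model held a stem-loop. Many models of the last group stop at or within a few bases of the stop codon, so that group is not a type of transcript end. Of the 18 tested genes that end by the stem-loop, 14 were higher and 1 lower when stimulated, with median log2 ratios of 4.25 in WT and 3.93 in Yap KO (4.10 and 3.72 with counts of 0 set to the floor). Of the 19 tested genes that continue past it, 11 were higher and 3 lower, with medians of 0.92 and 1.25. Of the 13 tested genes without a stem-loop in a model, 10 were higher and 2 lower, with medians of 2.62 and 2.82. Beside these counts, 33.3% of all genes tested were called higher and 34.1% lower. In each group, members near 0 reads without stimulation could hardly show anything but a rise. Reads of genes that continue past the stem-loop made up 78.4% of histone reads in WT unstimulated and 76.4% in Yap KO unstimulated cells, and 45.1% and 49.1% when stimulated. Summed, the genes that end by the stem-loop were 7.39-fold higher in stimulated WT and 6.13-fold in Yap KO cells, those that continue 1.41-fold and 1.54-fold, or 2.98-fold and 2.90-fold without Hist1h1c and Hist3h2a. The models of Hist3h2a and Hist1h1c, both lower when stimulated, run 1643 and 840 bases past the hairpin, and that of Hist1h3c, with the highest coefficient of all members, 74 bases. Other genes went against that order. The models of Hist1h1d and Hist1h4d, both higher when stimulated, run 4884 and 770 bases past the hairpin, and that of Hist2h2aa2, which was lower, 35 bases.

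**Figure D4:**
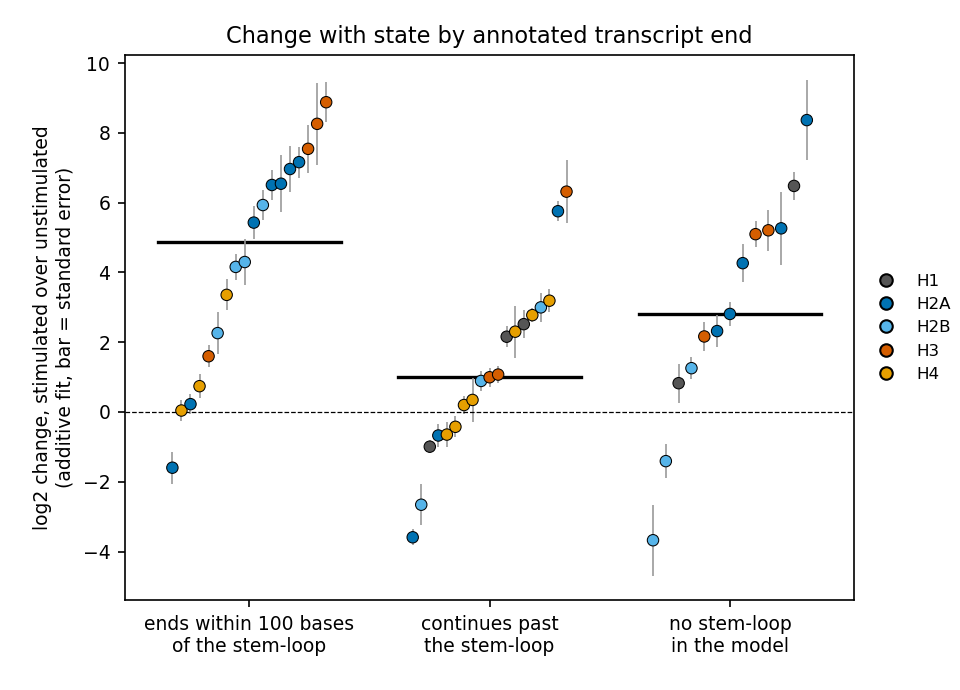
State coefficient of the additive fit (log2, stimulated over unstimulated, bars are standard errors) of the 50 tested histone genes, by where the annotated model ends relative to the stem-loop; colours are classes and horizontal lines group medians. All 3 groups span values below and above 0, and 14 of 18, 11 of 19 and 10 of 13 genes were called higher, against 33.3% of all genes tested. Many models of the group without a stem-loop end at the stop codon.

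The annotated end and the share of copied sequence move together with these counts, and their parts in the result were not tested. Among the 22 tested members with under 50% of their 31-base stretches in another gene, 11 were higher and 5 lower, and the median log2 ratios were 0.45 (WT) and 1.16 (Yap KO). Among the 28 with 50% or more, 24 were higher and 1 lower, with medians of 3.72 and 3.66. Small RNAs that lack a poly(A) tail were fixed as a list beside the histone genes and fell for the larger part. Of 10 with an entry, 5 were tested, with 3 lower and 1 higher (34.1% and 33.3% of all genes tested). Among these, Rnu12, an RNA of the minor spliceosome, had 21, 16, 6 and 1 reads and Rmrp, the RNA of RNase MRP, 22, 14, 2 and 5, while Rpph1, the RNA of RNase P, rose from 32 and 51 to 185 and 204.

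Calls were also counted by position, where 33.3% of all genes tested were called higher and 34.1% lower. On chromosome 13 (GRCm38), clusters hold 19 genes (chr13:21715763-21837530), 5 genes (chr13:22035164-22043676) and 29 genes (chr13:23531050-23764406). In the first, 10 of 11 tested genes were higher, in the second all 5, and in the third 19 of 25, with Hist1h1c the 1 lower gene. Of the 10 genes on chromosome 3 (chr3:96219865-96270132), 5 were tested, 1 of which was higher and 2 lower. All 3 genes of chromosome 11 (chr11:58948920-58956830) were lower, and Hist4h4 on chromosome 6 was not called. The summed reads of the 5-gene cluster were 26.2-fold higher in stimulated WT and 22.0-fold in Yap KO cells, and those of the chromosome 11 genes fell to 0.0815 and 0.0803 of the unstimulated level. H2A and H2B genes lie head to head in pairs: 14 such pairs, with under 500 bases between the starts, were found on chromosomes 3, 11 and 13, 13 of them with both genes in the tables and 7 with both genes tested. Of these 7, both genes rose in 4 pairs, Hist1h2an with Hist1h2bp, Hist1h2ah with Hist1h2bk, Hist1h2ag with Hist1h2bj and Hist1h2ae with Hist1h2bg, and both fell in 1, Hist3h2bb-ps with Hist3h2a. In the other 2 the calls differed: Hist2h2ac was not called where Hist2h2be was lower, and Hist1h2ac was not called where Hist1h2bc was higher (adjusted p = 0.0701 for Hist1h2bc with DESeq2).

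RefSeq promoter sequences (GRCm38.p6) were matched for 61 members, and the 250 bases before the start were searched on both strands. The CCAAT box (letters CCAAT) was present in 82.0% of histone promoters and in 33.8% of all promoters of the same length. For the TATA box (TATAAA) the shares were 47.5% and 12.4%, for the octamer (ATTTGCAT), a motif long known from H2B promoters, 21.3% and 1.601%. All 6 H1, 17 H2A and 16 H2B promoters had a CCAAT match, and 3 of 12 H4 promoters did. Octamer matches were found in 7 of 17 H2A and 6 of 16 H2B promoters and in 0 of the H1, H3 and H4 promoters. The windows of H2A and H2B genes that lie head to head overlap, so 1 site can be counted for both genes. Hist1h2ae and Hist1h2bg share 1 octamer site in this way, as do Hist1h2ah and Hist1h2bk, and Hist1h2aa and Hist1h2ba. The H1 box (AAACACA) matched 5 of 6 H1 promoters and 6.25% of all promoters. A match describes letters in this window and does not show that a factor binds there, and matches of these motifs may overlap. The 100 bases before the RefSeq start are printed for the gene of H1, H2B and H3 with a large rise and for the H2A gene with the largest fall, with motif matches on either strand in capitals.
Hist1h1b (chr13:21780626-21780725, minus strand): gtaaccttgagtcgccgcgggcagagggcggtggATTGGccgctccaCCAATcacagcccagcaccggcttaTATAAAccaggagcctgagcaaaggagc
Hist1h2bk (chr13:22035721-22035820, plus strand): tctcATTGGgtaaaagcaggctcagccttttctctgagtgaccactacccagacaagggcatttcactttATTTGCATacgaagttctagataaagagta
Hist1h3c (chr13:23745522-23745621, minus strand): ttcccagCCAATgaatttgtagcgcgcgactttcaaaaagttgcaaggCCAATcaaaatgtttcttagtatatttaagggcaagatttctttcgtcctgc
Hist3h2a (chr11:58954585-58954684, plus strand): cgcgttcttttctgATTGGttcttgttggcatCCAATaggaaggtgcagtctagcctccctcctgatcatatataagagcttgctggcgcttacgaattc
A CCAAT match, read on either strand, is present in all 4, in the 3 genes that rose and in Hist3h2a, which fell.

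No histone gene was called by genotype. In the additive fit 0 of 50 members passed in edgeR, and DESeq2 called 0 as well. The lowest adjusted p was 0.212, and 4 members had an unadjusted p under 0.05, against 1.40% of all genes called and 11.6% with an unadjusted p under 0.05. With 1 library per genotype and state, this coefficient sets 2 sources of cells against each other, so its p-values understate the error of a comparison between animals. The summed histone level of Yap KO was 0.918 of WT in unstimulated cells (0.872 to 0.967) and 0.904 in stimulated cells (0.873 to 0.937). The median log2 ratio of Yap KO over WT was -0.04 in unstimulated cells and -0.20 in stimulated cells, against 0.03 and -0.00 over all genes tested. In the stimulated cells 33 of 50 members were below 0, where 50.1% of all genes tested were, and in the unstimulated cells 26 of 50, where 44.9% were. No member differed by 2-fold the same way in unstimulated and in stimulated cells.

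At least 2-fold higher in Yap KO were 3 members in unstimulated cells (4.74% of all genes tested) and 0 in stimulated cells (4.11%). At least 2-fold lower were 4 in unstimulated cells (3.62%) and 5 in stimulated cells (5.69%). Of those 5, Hist2h4 was the 1 gene below WT in both states: 81 reads in Yap KO against 123 in WT unstimulated, and 39 against 90 stimulated. Its genotype coefficient was -0.93 ± 0.30 log2 with an adjusted p of 0.239 (edgeR). Hist1h4d lay above WT in both states, 147 against 89 and 774 against 524 reads, with a coefficient of 0.60 ± 0.19 and the lowest adjusted p of the members, 0.212. In stimulated cells the ratio of Hist1h4d was 1.56 (log2 interval 0.48 to 0.81), and it took 13.5% of histone reads in Yap KO and 7.87% in WT. Hist1h1d had 34 reads in Yap KO and 10 in WT unstimulated cells, a ratio of 3.00 (log2 interval 0.53 to 2.77), and 106 against 91 when stimulated. By class, the H2B sum in stimulated Yap KO cells was 0.698 of WT (0.633 to 0.769), the H2A sum 0.855 (0.8005 to 0.913), the H3 sum 0.870 (0.802 to 0.943) and the H4 sum 1.102 (1.02 to 1.19). In unstimulated cells the H2A sum was 0.779 of WT (0.713 to 0.852), while the intervals of the other classes included 1.

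**Figure D5:**
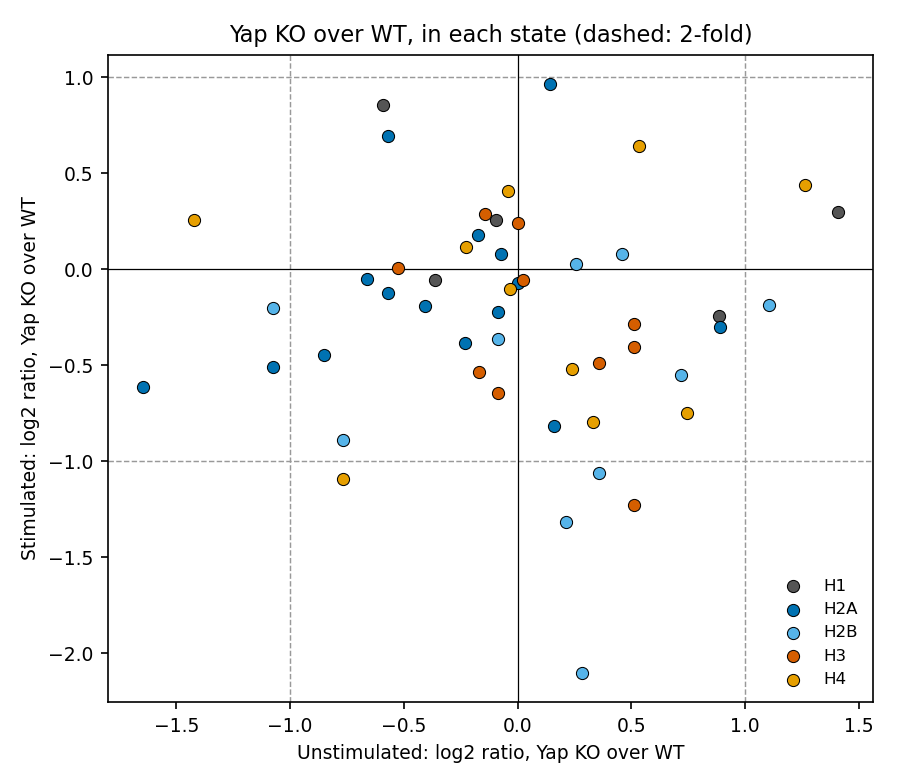
Each point is 1 of the 50 tested histone genes, placed by its log2 ratio of Yap KO over WT in unstimulated (x axis) and in stimulated cells (y axis); dashed lines mark 2-fold. No gene lies beyond 2-fold the same way on both axes.

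Genes that make and process histone mRNA mostly rose in stimulated cells. Of the list of 13 genes for SLBP and 3′ end processing, 10 were higher, 1 lower and 2 not called. Over all genes tested, 33.3% were called higher and 34.1% lower. Slbp, which encodes the stem-loop-binding protein, had 2318 reads in WT and 2362 in Yap KO cells without stimulation, and 8610 and 6587 with it (1.98 ± 0.12 log2, adjusted p = 1.16e-06). Npat, the coactivator of histone gene transcription, rose by 1.11 ± 0.13, and Casp8ap2, a component of histone locus bodies, by 1.05 ± 0.12. Zfp473, a zinc finger protein of the U7 particle, rose from 15 and 58 reads to 185 and 175, and 205 of its exon bases lie opposite another gene. Lsm10 and Lsm11, the proteins particular to the U7 particle, were not called (0.18 ± 0.18 and 0.23 ± 0.21, adjusted p = 0.408 and 0.365). Cpsf2 rose by 1.28 ± 0.13, and Cpsf3, which encodes the endonuclease, was lower (-0.47 ± 0.12, adjusted p = 0.00756). None of the 13 was called by genotype, with 0 at an unadjusted p under 0.05.

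The list for histone mRNA decay split: 2 of 7 were higher, 4 lower and 1 not called, against 33.3% higher and 34.1% lower over all genes tested. Xrn1, the 5′ to 3′ exonuclease, fell from 2590 and 2877 reads to 533 and 653 (-1.91 ± 0.15, adjusted p = 4.45e-06). The terminal uridylyltransferase genes Zcchc6 and Zcchc11 fell by 1.19 each on the log2 scale. Eri1 and Lsm1, the 2 that were higher, were chosen for naming after their values were seen. They rose by 1.17 ± 0.12 and 0.80 ± 0.14. Of 23 genes for histone chaperones and deposition, 15 were higher, 5 lower and 3 not called. Chaf1a, the large subunit of chromatin assembly factor 1, rose from 136 and 163 reads to 3822 and 3128 (4.83 ± 0.16), Asf1b, a chaperone of H3 and H4, by 3.70 ± 0.15 and Hat1, which acetylates new H4, by 2.88 ± 0.13. Of the 8854 exon bases of Chaf1a, 4648 lie opposite another gene, so its reads cannot all be assigned by strand.

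All 20 genes of the S phase list were higher when stimulated (33.3% of all genes tested were), with coefficients of 1.17 to 6.74. The list's median log2 ratio was 3.03 (WT) and 2.91 (Yap KO). Rrm2, a subunit of ribonucleotide reductase, had 172 and 252 reads unstimulated and 18730 and 17793 stimulated, and Cdc6, a replication licensing factor, 52 and 72 against 5779 and 4368. Cdc45, a subunit of the replicative helicase, rose by 5.13 ± 0.16. In stimulated cells the median log2 ratio of Yap KO over WT was -0.13 for this list, beside -0.20 for the histone genes.

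Replication-independent histone variants, most of which can be made outside S phase from polyadenylated mRNA, were measured with many more reads. Of 12 listed, 9 were tested, of which 7 were higher and 2 lower, against 33.3% and 34.1% of all genes tested. Cenpa, the H3 variant of centromeres, rose by 2.61 ± 0.20, H2afx by 2.38 ± 0.16 (314 and 494 reads against 1675 and 1667) and H2afz by 1.87 ± 0.15. H3f3b, 1 of 2 genes for H3.3, rose by 1.08 ± 0.13, H1f0 by 0.98 ± 0.27, H2afj by 0.62 ± 0.15 and H3f3a by 0.35 ± 0.12 (adjusted p = 0.0306). H2afv fell by 0.98 ± 0.17 and H2afy, which encodes macroH2A, by 0.38 ± 0.13. The summed CPM of this list were 1688, 1750, 2990 and 3034, above the 130.1, 119, 317 and 287 of the replication-dependent genes in the same libraries.

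Markers of cell types moved with state too, and their part in the histone result was not tested. Beside the counts below, 34.1% of all genes tested were called lower and 33.3% higher. Of the T cell list, 11 of 12 were tested, 10 lower and 1 higher, and the sum was 8266 and 8555 CPM unstimulated and 3183 and 2947 stimulated. Cd3e had 20647, 24777, 5023 and 5206 reads. Cd8a had 18825, 20341, 5538 and 4858 and Cd8b1 30451, 39286, 6812 and 5198, while Cd4 had 0 to 3. B cell markers summed to 1229 and 1189 CPM unstimulated and 423 and 381 stimulated (5 of 9 tested lower, 2 higher), with 5 to 7 reads of Pax5. Myeloid markers summed to 869 and 1474 against 67.3 and 67.2, with 2 of 3 tested lower and Itgam, Adgre1, S100a8 and S100a9 at 0 in both stimulated libraries. NK cell markers summed to 879 and 1285 against 375 and 530.3 (5 of 6 tested lower), and erythroid markers to 3.94 and 2.20 against 0.667 and 0.401 (1 of 1 tested lower). In WT unstimulated cells 1 B cell marker held 24749 of the 27144 reads of its list. For myeloid markers this was 18650 of 19200, and for NK cell markers 14020 of 19410. In Yap KO unstimulated cells the values were 26464 of 30213, 36747 of 37465 and 24165 of 32653. The B cell, myeloid and NK cell sums thus rest mostly on 1 gene each.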

How the data were processed

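The 4 libraries are WT and Yap KO cells, each unstimulated and stimulated. The deposited tables hold raw read counts per Ensembl identifier, with no normalization by the authors apparent in the whole-number values, and end in 5 summary entries, which were left out. Of all entries 48.3 to 52.5% lay in no annotated gene and 3.48 to 4.31% aligned in more than 1 place. The latter were not counted, so near-identical histone genes lose reads. Per the submitters' processing notes, reads were placed on mm9. Aligner, annotation and strand setting: not given in the sources used here, so reads of 23 members with exons opposite another gene cannot be assigned by strand. Coordinates are from GENCODE M21 (GRCm38).

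Genes were kept with filterByExpr by state (minimum count 10), scaled with TMM and tested with edgeR 4.0.16 (glmQLFit, quasi-likelihood F test, Benjamini-Hochberg over 15394 genes) with genotype and state as additive terms, which leaves 1 residual degree of freedom and prior degrees of freedom of 7.98. DESeq2 1.42.0 was an alternative. The code was tested on simulated data. Log2 ratios of library pairs used a prior count of 2, with exact conditional binomial 95% intervals and a floor of 3 counts per library for counts of 0, or 0.115 to 0.155 CPM. Sums are CPM over reads in genes with exact Poisson intervals, and levels per gene are TMM-scaled CPM. Intervals cover counting error only, since reads are not known to be separate molecules. The standard error of a coefficient is its size divided by the square root of its F value.

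The stem-loop was searched in all transcripts of the members with a 16-base consensus (up to 2 mismatches). Members and lists were chosen with earlier results of these data known. Named were, per class, the 2 members with the most reads and the 2 with the largest rise and fall in the fit, and any 2-fold apart between genotypes alike in both states; of other lists the 3 largest coefficients, and any member of the 3′ end and variant lists.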

Additional observations from a re-analysis of the deposited data

How the results depend on the processing

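The count of histone genes called higher when stimulated (35 of 50) was 20 of 29 with a mean of at least 50 reads per library, 22 of 33 without genes that have exons opposite another gene, and 11 of 22 among genes with under 50% of their 31-base stretches elsewhere. It was 30 to 35 of 50 under DESeq2 size factors, total-read scaling, state alone, DESeq2 and gene-wise dispersions, the last chosen after seeing the data. With no filter it was 39 of 64. The 50-read minimum and the limits on opposite exons and on copied stretches test fewer genes by construction, and no filter tests more. The count called lower (6) was 3 with the 50-read minimum and 3 with DESeq2. Among genes with under 50% of their stretches elsewhere the median log2 ratio was 0.45 in WT and 1.16 in Yap KO, and the summed CPM 101, 93.2, 147 and 142 for unstimulated WT and Yap KO, then stimulated WT and Yap KO. Without Hist1h1c, the member with the most reads summed over the 4 libraries (Hist3h2a has more in each unstimulated one), the sums were 105, 96.7, 307 and 275. TMM-scaled libraries gave 326 and 296 for stimulated WT and Yap KO. No coefficient reversed among 222 values for 30 genes, 6 of them named outside the rule after their values were seen. Of these values 216 kept their side of the threshold. Hist2h2aa2, Hist3h2bb-ps, Hist2h2be and Hist1h2bc lost their calls with DESeq2, and Hist2h2be also without the filter and with state alone. The genotype count was 0 in each setting. With total-read scaling the median log2 ratio of stimulated over unstimulated over all genes was -0.11 in WT and -0.13 in Yap KO, against -0.02 and -0.05 with TMM. No paired analysis was possible because, as a block by replicate number, every label carries the number 1. The additive fit does compare the states within each genotype, and without its genotype term 34 were higher and 5 lower. Members with fewer than 10 reads in a state have wide intervals, and no difference between the genotypes in their response to stimulation could be tested.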
